A study of Mus musculus with 3 samples.

Results

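Retnla-expressing cells of the mouse skin wound were described here, chosen by their measured Retnla level as the barcodes that carried at least 3 Retnla UMIs (unique molecular identifiers, each standing for 1 captured RNA molecule). Only barcodes with at least 200 detected genes and under 20% mitochondrial UMIs were kept. The rule found 91 of 3762 kept barcodes, called Retnla cells below. They were set against the 3588 kept barcodes of the same libraries with 0 Retnla UMIs, called Retnla-zero cells, and the 83 barcodes with 1 or 2 Retnla UMIs entered neither class.

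The study used droplet single-cell RNA sequencing to profile monocytes and macrophages isolated from wounded skin 3, 6 and 10 days after injury, in C57BL6/J mice that were all male. Each day was 1 library of cells pooled from 2 mice, wounded and otherwise untreated as far as the labels say, and no value can be traced to 1 mouse of a pool. The age of the animals and the gates used to isolate the cells are not given in the sources used here. With 1 library a day nothing was tested: every ratio below describes these libraries, and every interval is an exact 95% interval for counting error only.

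Retnla encodes RELMα, also called FIZZ1, a small secreted cysteine-rich protein of the resistin family. In macrophages it is a classical target of IL-4 and IL-13 acting through the transcription factor STAT6, often together with C/EBPβ, and it is widely used as a mark of alternative activation beside Arg1, Chil3 and Mrc1. Eosinophils, some dendritic cells and epithelia can make it as well, and in skin it has been studied in the repair of wounds, where IL-4 receptor signalling in macrophages bears on collagen assembly.

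The gene lies on mouse chromosome 16 (chr16:48842551-48844461, plus strand, GRCm38, GENCODE release M21), next to its paralog Retnlg at chr16:48872621-48874496. The 192 bases before that start are shown because they hold a match to each of the motifs of the factors named above (RefSeq, GRCm38.p6, chr16:48842359-48842550, plus strand, 5′ to 3′).
Retnla: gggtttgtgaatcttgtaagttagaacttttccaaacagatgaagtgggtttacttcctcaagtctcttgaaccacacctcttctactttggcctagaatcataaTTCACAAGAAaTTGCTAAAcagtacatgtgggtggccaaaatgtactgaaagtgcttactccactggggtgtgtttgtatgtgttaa
The first run of capitals matches the STAT6 motif (TTC and GAA with any 4 bases between them) and the second the C/EBP motif (TTGC and AA with any 2 bases between them), 1 base apart and not overlapping. Searched on both strands, the STAT6 motif was found in 5.85% and the C/EBP motif in 9.56% of all 32851 promoter windows of 250 bases. Of the 16 genes made up of the named higher genes (below) and the markers, 10 had a window in the table: Retnla alone matched the STAT6 motif, and Retnla, Ear2, Lyz1, Pdlim1 and 1 of the 3 Unc119 starts matched the C/EBP motif. A match is a description of letters and was not read as a site.

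Retnla itself chose the cells, so its values are a description. On day 3, 12 of 1174 kept barcodes were Retnla cells, or 1.02% (interval 0.529% to 1.78%). On day 6 they were 29 of 825, or 3.52% (2.37% to 5.01%), and on day 10 they were 50 of 1763, or 2.84% (2.11% to 3.72%). The day 3 interval ended below those of both later days, and the intervals of days 6 and 10 overlapped. Under the stricter limit of 10% mitochondrial UMIs, 7 of 900, 17 of 598 and 24 of 1362 barcodes remained, or 0.778% (0.313% to 1.6%), 2.84% (1.66% to 4.51%) and 1.76% (1.13% to 2.61%). With every barcode thinned to 2000 UMIs, which left out 2 Retnla cells of day 3 and 9 of day 10, the share with at least 3 Retnla UMIs was 0.550%, 3.09% and 2.43%, and with at least 1 it was 1.01%, 4.16% and 3.81%.

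Retnla was concentrated in few cells. A Retnla cell of day 3 held from 3 to 173 Retnla UMIs with a median of 21, one of day 6 from 4 to 274 with a median of 23, and one of day 10 from 3 to 1828 with a median of 28.5. The transcript took a median 0.484%, 0.604% and 0.956% of a Retnla cell's UMIs on days 3, 6 and 10, and up to 8.79% in 1 cell of day 10. Summed over the class, Retnla stood at 2781, 5433 and 14759 CPM (counts per 1e+06 UMIs of the summed class). The 5 highest cells supplied 82.9%, 59.8% and 60.8% of the Retnla UMIs of the class, and on day 10 a single cell supplied 26.7%. Retnla cells held 98.5%, 98.6% and 99.2% of the Retnla UMIs of all kept barcodes. Just inside the limit lay 1, 0 and 1 cells with exactly 3 UMIs, and just outside it 0, 4 and 4 with exactly 2. A further 7, 19 and 49 barcodes held a single Retnla UMI, while 71 of the 91 Retnla cells held 10 or more.

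**Figure D1:**
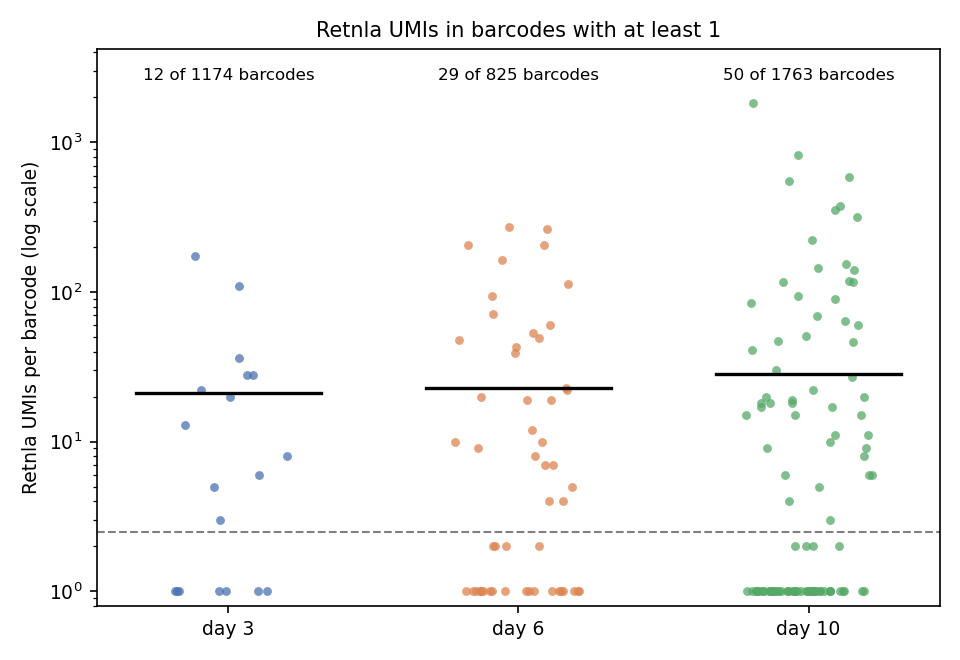
Retnla UMIs per barcode (log scale, vertical axis) in every kept barcode with at least 1, by day (horizontal axis). Each point is a barcode, the dashed line is the limit between 2 and 3 UMIs, and the bar is the median of the Retnla cells; few barcodes lie at 2 or 3 UMIs on any day, and the highest point is a day 10 cell with 1828.

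The kept barcodes had a median of 8706, 7645 and 6311 UMIs on days 3, 6 and 10, in libraries of 11199361, 9273960 and 13972817 UMIs. Retnla cells had medians of 6604, 8373 and 4340.5 UMIs, against 8709, 7594 and 6362.5 in Retnla-zero cells. Their median mitochondrial share was higher on each day, at 8.45%, 9.30% and 10.8% against 4.6%, 4.75% and 3.95%. Days 6 and 10 shared 2 cell barcodes, neither of them a Retnla cell, and days 3 and 6, and 3 and 10, shared none. A doublet caller marked 11 of the 3762 barcodes and no Retnla cell.

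The Retnla cells differed widely in depth. Those under 10% mitochondrial UMIs, 48 in number, had a median of 16185.5 UMIs, and Malat1 (a nuclear noncoding RNA) and Gm42418 together took a median 3.17% of them. The other 43, at 10% to 20%, had a median of 2812 UMIs, of which the same RNAs took 19.2%. The part of RNA quality in the results was not tested, and some counts are given below under the 10% limit as well.

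The marker genes named for these cells were checked first. Ear2 (an eosinophil-associated ribonuclease, chr14:44102654-44103534), Lyz1 (a lysozyme typical of Paneth cells, chr10:117287797-117292868) and Fcrls (a scavenger receptor-like member of the Fc receptor family, chr3:87250758-87263738) were higher in Retnla cells on all 3 days. Ear2 stood at 444, 871 and 575 CPM on days 3, 6 and 10 in Retnla cells against 11.5, 48.8 and 25.1 in Retnla-zero cells, 38.6-, 17.8- and 22.9-fold higher. Lyz1 stood at 265, 466 and 1390 CPM against 15, 33.7 and 19.2, or 17.7-, 13.8- and 72.4-fold. Fcrls stood at 302, 519 and 1102 CPM against 4.16, 72.8 and 43.4, or 72.7-, 7.12- and 25.4-fold. The lowest value in Retnla cells lay above the highest value in Retnla-zero cells for each of the 3 genes. The 3 markers came with the choice of these cells, so their ratios are a check of the label and no independent support.

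Not every Retnla cell carried the markers. UMIs of Ear2 were found in 5 of 12, 17 of 29 and 26 of 50 Retnla cells, of Lyz1 in 5, 12 and 31, and of Fcrls in 7, 20 and 38. Thinned to 2000 UMIs, Fcrls was detected in 20%, 48.3% and 56.1% of Retnla cells against 0.839%, 7.63% and 7.31% of Retnla-zero cells. At least 2 of the 3 genes were detected in 60 of 91 Retnla cells (65.9%), in 12 of the 83 barcodes with 1 or 2 Retnla UMIs (14.5%) and in 75 of 3588 Retnla-zero cells (2.09%), while 17 Retnla cells carried none. Single cells weighed on some sums: on day 3 one cell gave 48 of the 72 Ear2 UMIs and another 24 of the 43 of Lyz1. Lyz2, the common myeloid lysozyme whose sequence is close to that of Lyz1 so that UMIs may be shared or lost between them, stood at 7640, 8685 and 12331 CPM against 12764, 5956 and 9739, within 2-fold on each day.

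Levels were also set against the amount of Retnla in a cell. Over the 3 libraries, Lyz1 stood at 21.4 CPM in barcodes with 0 Retnla UMIs, 156 with 1 or 2, 116 with 3 to 9, 275 with 10 to 29 and 1436 with 30 or more. Fcrls ran from 37.3 through 98.6, 244 and 547 to 1051 CPM over the same bins. Ear2 was highest at 10 to 29 Retnla UMIs, with 858 CPM, and stood at 607 in the top bin. C1qa, a complement component of mature macrophages, ran the other way above the limit, from 1763 CPM at 3 to 9 Retnla UMIs through 539 to 391, and Ccl8, a chemokine of resident macrophages, from 461 through 39.3 to 47.4. Bins hold unequal shares of the 3 days, and these orders did not all hold within a day. C1qa rose again into the top bin on day 3, from 84.4 to 430 CPM, and on day 6, from 476 to 901. Ccl8 rose there from 9.15 to 177 CPM on day 6. Ear2 was highest in the top bin on day 6, at 965 CPM. On day 3 a single cell gave 48 of the 51 Ear2 UMIs at 10 to 29 Retnla UMIs. No test was made of these orders.

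Genes outside the rule were then compared between the classes within each day, calling a gene higher or lower at 2-fold or more among genes with at least 20 UMIs over both sums. On day 3, 1228 of 6501 genes were higher (18.9%) and 494 lower (7.6%). On day 6, 915 of 8639 were higher (10.6%) and 759 lower (8.79%), and on day 10, 1464 of 9282 were higher (15.8%) and 1016 lower (10.9%). The class of 12 cells on day 3 makes its ratios the least precise. Scaled by TMM factors, which moved the log2 ratios down by 0.35, 0.16 and 0.25, the calls on the higher side were 45.1%, 41.9% and 41.7% of all calls instead of 71.3%, 54.7% and 59.0%, so the balance of higher and lower genes turned with the scaling. Days 6 and 10 called 463 of 8387 genes higher alike (5.52%) and 499 lower alike (5.95%), and all 3 days called 202 of 6383 higher (3.16%) and 199 lower (3.12%).

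The named higher genes were the 15 with the largest mean ratio on days 6 and 10 of 77 that reached 100 CPM: Cd2, Lyz1, Ube2c, Gfra2, Ear2, Fcrls, Batf3, Jup, Fgfr1, Pdlim1, Socs6, Unc119, Dok2, Stmn1 and Clec4b1. Cd2, an adhesion receptor best known from lymphocytes and also found on some dendritic cells, stood at 80.2, 131 and 187 CPM against 4.06, 2.52 and 3.99, or 19.7-, 52.0- and 47.0-fold higher. It was detected in 4, 14 and 23 Retnla cells, so no day rested on a single one. Gfra2, the receptor for neurturin, stood at 105, 111 and 103 CPM against 0.967, 6.77 and 2.93, or 108-, 16.4- and 35.3-fold. Its level in Retnla cells was nearly the same on the 3 days, and the spread of the ratios came from the Retnla-zero cells.

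Batf3, a transcription factor of type 1 dendritic cells that activated monocytes also use, stood at 191, 262 and 316 CPM against 24.9, 28.9 and 27.8, or 7.66-, 9.07- and 11.4-fold. Fgfr1, a receptor for fibroblast growth factors, stood at 136, 248 and 211 CPM against 5.61, 45.2 and 15.3, or 24.2-, 5.47- and 13.8-fold. Jup, the junction protein plakoglobin, stood at 92.5, 111 and 116 CPM against 7.15, 15.9 and 8.70. Each of these 3 genes was detected in 54% or more of the Retnla cells of each day. Clec4b1, a C-type lectin of dendritic cells and monocytes, stood at 407, 373 and 362 CPM against 41.7, 81.1 and 59.0, or 9.77-, 4.6- and 6.13-fold. Dok2, an adaptor below tyrosine kinases, stood at 290, 332 and 394 CPM against 118, 58.2 and 54.7. The conventional dendritic cell list did not follow Batf3: of 8 measured members, Batf3 and Cd24a were higher on days 6 and 10 alike and 5 were lower (Cd209a, H2-Oa, Flt3, Ccr7 and Ccl22), with a median log2 ratio of -1.69 that takes members under 3 UMIs in Retnla cells at that floor. Among all genes 5.52% were higher alike and 5.95% lower alike.

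Ube2c and Stmn1, genes of dividing cells, rested on few cells: Ube2c was detected in 2, 3 and 6 Retnla cells, and Stmn1 in 4, 7 and 8. With Retnla-zero cells weighted to the clusters that held the Retnla cells, Stmn1 was lower on days 6 and 10 (mean log2 ratio -0.49) and on day 3 (-1.46), and 13 of the 15 named genes were still 2-fold higher on days 6 and 10. All 15 were still 2-fold higher there under the 10% mitochondrial limit and against Retnla-zero cells weighted to the same depth. These counts include the markers Ear2, Lyz1 and Fcrls, which came with the choice of the cells.

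The named lower genes were the 15 with the smallest ratio of 157: Spp1, Ifitm1, Cxcl3, Ptgs2, Cxcl1, Vegfa, Il1b, Ccl3, Mmp12, Slpi, Pdpn, Hilpda, Arg1, Slc7a11 and Sgk1. Spp1, which encodes osteopontin, a matrix protein abundant in wound macrophages, stood at 12.3, 23.3 and 28.0 CPM against 1245, 2473 and 2671. On days 6 and 10 it was 106- and 95.5-fold lower, and on day 3 Retnla cells held 2 UMIs of it. Il1b, the inflammatory cytokine IL-1β, stood at 715, 96.1 and 53.8 CPM against 3850, 1670 and 2021, or 5.38-, 17.4- and 37.6-fold lower. Few Retnla cells carried it: 5, 3 and 4 of the day's cells, and 1 of them gave 81 of the 116 UMIs of day 3.

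Vegfa, the vascular growth factor, stood at 30.8, 20.4 and 10.8 CPM against 303, 351 and 474, or 9.84-, 17.2- and 44.1-fold lower. Ccl3, a chemokine for monocytes and lymphocytes, stood at 67.8, 43.7 and 8.61 CPM against 644, 470 and 495, or 9.49-, 10.8- and 57.5-fold lower. Cxcl3, a neutrophil attractant, had 0, 1 and 0 UMIs in Retnla cells against 1138, 608 and 465 CPM, which at a floor of 3 UMIs made it at least 61.5-fold lower on day 3 and at least 72.1-fold lower on day 10. Hilpda and Slc7a11 were within 2-fold on day 3.

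**Figure D2:**
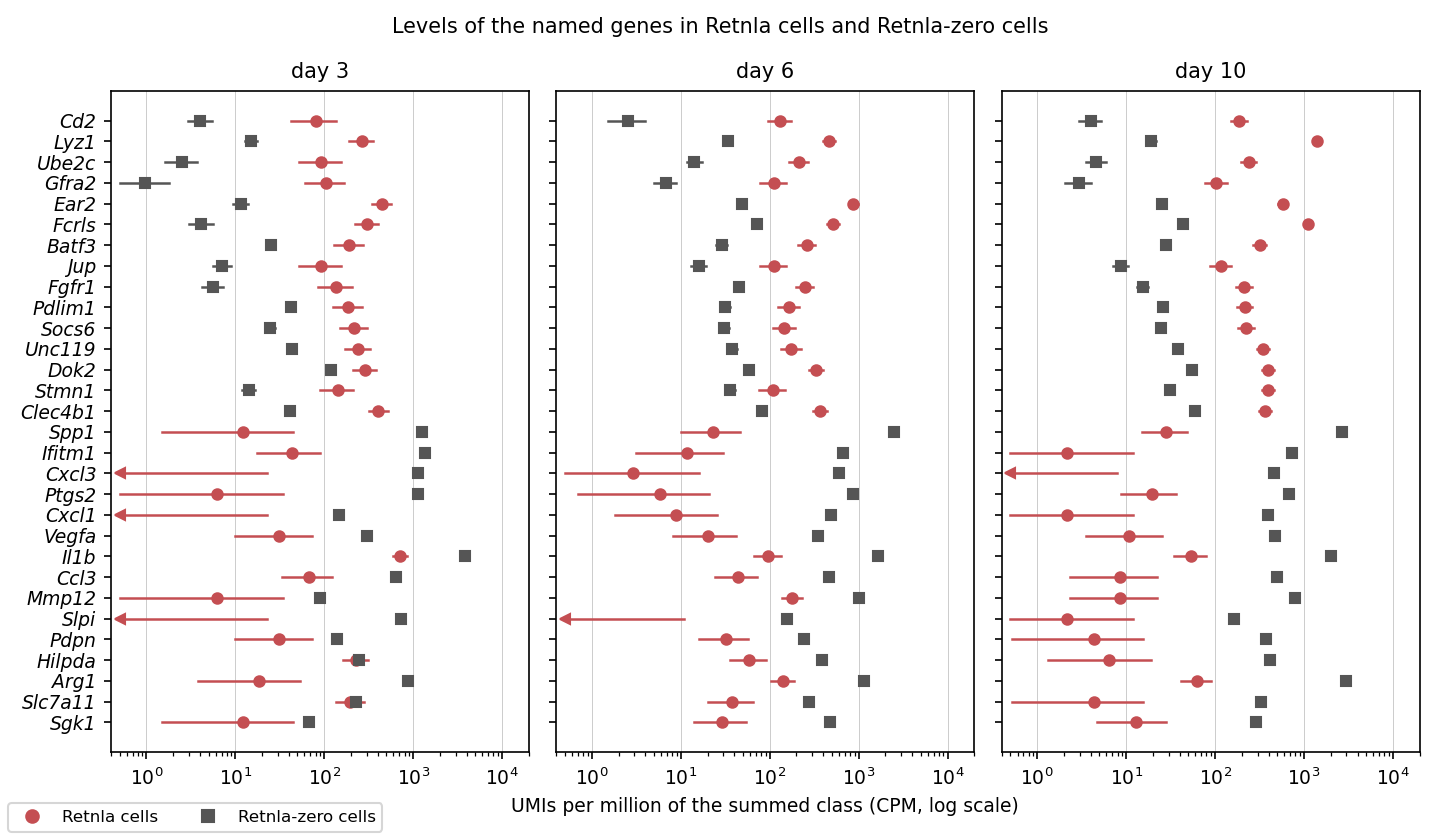
Levels of the 15 named higher and 15 named lower genes (vertical axis) in CPM of the summed class (horizontal axis, log scale), by day. Round points are Retnla cells and squares Retnla-zero cells, bars are exact 95% counting intervals and arrows stand for 0 UMIs; the first 15 genes lie to the right in Retnla cells on every day, and the last 15 to the left except Hilpda and Slc7a11 on day 3.

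The lower side depended on which cells stood for comparison. With Retnla-zero cells weighted to the clusters of the Retnla cells, 5 of the 15 named lower genes were still 2-fold lower on both days, and 12 kept their direction. The other 3 were Arg1, Ptgs2 and Slpi, each of them above the weighted Retnla-zero level on day 10. Ptgs2 then stood at 5.83 and 19.4 CPM against 177 and 11.2 on days 6 and 10, and Slpi had 0 and 1 UMIs in Retnla cells. Il1b stayed 2-fold lower on both days, at 96.1 and 53.8 CPM against 547 and 118, and Arg1 did not, at 140 and 62.4 CPM against 144 and 46.9. All 15 were still 2-fold lower on both days under the 10% mitochondrial limit and with depth weighted. Of the 463 genes higher alike, 116 were among the 210 called under the cluster weighting (25.1%), and of the 499 lower alike, 150 were among its 303 (30.1%). The share of all measured genes that these calls make up is not given, so list counts under this weighting stand below without it.

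Genes of the alternative activation list were split between higher and lower. Of 18 measured list members, 4 were higher on days 6 and 10 alike (Irf4, Ccl24, Cd163 and Cd200r1) and 7 lower (Arg1, Chil3, Tgm2, Cd209a, Msr1, Slc7a2 and Ccl22), with a median log2 ratio of 0.09 against 0.10 over all genes. The shares over all genes were 5.52% higher alike and 5.95% lower alike. Arg1, the enzyme arginase, stood at 18.5, 140 and 62.4 CPM against 869, 1159 and 2944. It was 8.29- and 47.2-fold lower on days 6 and 10, and on day 3 Retnla cells held 3 UMIs of it. Chil3, the chitinase-like protein Ym1, stood at 43.2 CPM on day 3 against 1500, and had 0 UMIs on days 6 and 10 against 110 and 160 CPM, at least 12.6- and 24.8-fold lower. On day 3 the balance was the other way, with 9 of 17 members higher and 5 lower and a median log2 ratio of 1.05 against 0.25 over all genes. That day 18.9% of all genes were higher and 7.6% lower. With the mean of the cells' CPM in place of the summed UMIs, 7 were higher and 5 lower on days 6 and 10 alike (median log2 ratio 0.63). Under the 10% mitochondrial limit 3 were higher and 7 lower (-0.55), and the same counts were found with at least 10 Retnla UMIs (-0.52). Ccl24 was not among the higher genes in either of these last settings. No share over all genes is given for these alternatives, so their counts were not set against one.

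Mrc1, the mannose receptor, stood at 654, 696 and 667 CPM against 232, 395 and 316, or 2.81-, 1.76- and 2.11-fold higher, and was detected in 10 of 12, 25 of 29 and 41 of 50 Retnla cells. Mgl2, a galactose-binding lectin, stood at 469, 355 and 256 CPM against 42.3, 129 and 136, or 11.1-, 2.75- and 1.88-fold higher. Irf4, a transcription factor induced by IL-4, stood at 61.7, 72.8 and 101 CPM against 9.96, 17.8 and 10.9, or 6.19-, 4.10- and 9.28-fold higher. Cd163, the haemoglobin scavenger receptor, stood at 130, 221 and 116 CPM against 4.54, 80.7 and 31.3. Scaled by TMM, 3 members were higher and 7 lower, and with clusters weighted 2 were higher and 3 lower of 14. These counts, too, stand without a share over all genes.

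Of the IL-4 and IL-13 receptor and signalling list, 3 of 15 measured genes were higher on days 6 and 10 alike (Irf4, Pparg and Socs2) and 6 lower (Socs3, Il4ra, Il13ra1, Cebpb, Socs1 and Klf4), with a median log2 ratio of -0.94. The shares over all genes were 5.52% higher alike and 5.95% lower alike. Il4ra, the receptor chain that binds IL-4, stood at 49.3, 64.1 and 23.7 CPM against 158, 158 and 193, or 3.20-, 2.46- and 8.13-fold lower. Stat6, the factor below it, stood at 74.0, 69.9 and 66.7 CPM against 66.6, 58.1 and 60.2, with ratios of 1.11, 1.2 and 1.11 whose intervals all held 1. Socs3, a feedback inhibitor of cytokine signals, stood at 327, 67.0 and 53.8 CPM against 691, 432 and 434, or 2.11-, 6.45- and 8.06-fold lower.

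Inflammatory cytokines and enzymes were lower almost throughout. Of 11 measured, 10 were lower on days 6 and 10 alike and none higher, with a median log2 ratio of -3.24, and the same 10 to 0 count was found with TMM scaling and under the 10% mitochondrial limit. Among all genes 5.95% were lower alike in the main comparison. Ptgs2, the inducible cyclooxygenase, stood at 6.17, 5.83 and 19.4 CPM against 1125, 867 and 679, with 1, 2 and 9 UMIs in Retnla cells, all 9 of day 10 from a single cell. Tnf stood at 74.0, 64.1 and 12.9 CPM against 274, 502 and 248, or 3.70-, 7.84- and 19.2-fold lower. With clusters weighted, only 6 members could be measured and 1 of them, Il1b, was lower on both days.

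Of 17 chemokines, 11 were lower on days 6 and 10 alike and 2 higher, and of 8 chemokine receptors 5 were lower and 1 higher. Among all genes 5.95% were lower alike and 5.52% higher alike. Ccl6, a chemokine made steadily by myeloid cells, stood at 2565, 2331 and 2890 CPM against 1788, 899 and 531, or 1.43-, 2.59- and 5.44-fold higher. Ccl24, an eosinophil attractant, stood at 179, 52.4 and 75.3 CPM against 83.0, 24.4 and 9.76, or 2.15-, 2.15- and 7.72-fold higher. It was still called on both days with depth weighted. Under TMM scaling, under the 10% mitochondrial limit and with at least 10 Retnla UMIs it was not, and Ccl6 alone was higher. With clusters weighted, 0 of 16 measured chemokines were higher on both days. Ccr2, the receptor that brings monocytes out of the blood, stood at 1209, 857 and 1024 CPM against 796, 377 and 463, or 1.52-, 2.27- and 2.21-fold higher, and was not called under TMM scaling. Other monocyte markers were lower: Plac8 stood at 43.2, 163 and 6.46 CPM against 1965, 338 and 349, and 6 of 10 monocyte markers were lower on days 6 and 10 alike.

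Hypoxia response genes were lower in 7 of 13, lipid handling genes in 8 of 16, growth factors in 6 of 12 and matrix and protease genes in 10 of 21, on days 6 and 10 alike. The share lower alike over all genes was 5.95%. Higher members were Pltp in the lipid list, which encodes the phospholipid transfer protein, at 536, 947 and 785 CPM against 99.9, 379 and 308, and none in the other 3 lists. With clusters weighted, these counts of lower genes were 2 of 12, 1 of 15, 1 of 7 and 2 of 18, and 4 matrix and protease genes were higher. No share over all genes is given for that weighting, so these counts were not set against one. Of 18 genes linked to tissue dissociation (immediate early and heat shock genes), 11 were lower on days 6 and 10 alike, and 3 of 18 with clusters weighted. Fos stood at 382, 288 and 260 CPM against 1080, 957 and 1678.

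Of 11 measured MHC class II genes, which serve antigen presentation, H2-DMb1 was higher and H2-Oa lower on days 6 and 10 alike, a count near the shares over all genes. H2-Aa, a chain of a class II molecule, was detected in 10 of 12, 24 of 29 and 48 of 50 Retnla cells (83.3%, 82.8% and 96.0%) and in 35.2%, 51.9% and 42.0% of Retnla-zero cells. Thinned to 2000 UMIs, the shares were 80%, 75.9% and 85.4% against 30.4%, 45.5% and 35.4%. Its summed level was 3330, 4355 and 4390 CPM against 2622, 4703 and 3126, within 2-fold on each day. H2-DMb1, a chain of the peptide loading factor whose UMIs may be shared with the near-identical H2-DMb2, stood at 759, 854 and 902 CPM against 332, 400 and 306.

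Type I interferon response genes differed between the days. On day 3, 13 of 17 were lower and none higher, on day 6, 3 were lower and 2 higher, and on day 10, 10 were lower and none higher. Among all genes 7.6%, 8.79% and 10.9% were lower and 18.9%, 10.6% and 15.8% higher on days 3, 6 and 10. The 2 higher genes of day 6 thus lay near that day's share. They were Ifit3 and Irf7, and for each of them 1 cell gave most of the UMIs. Isg15, an interferon-induced ubiquitin-like protein, stood at 148, 291 and 8.61 CPM against 814, 174 and 79.2, and 1 cell gave 76 of the 100 UMIs of day 6. The difference between days was not tested.

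**Figure D3:**
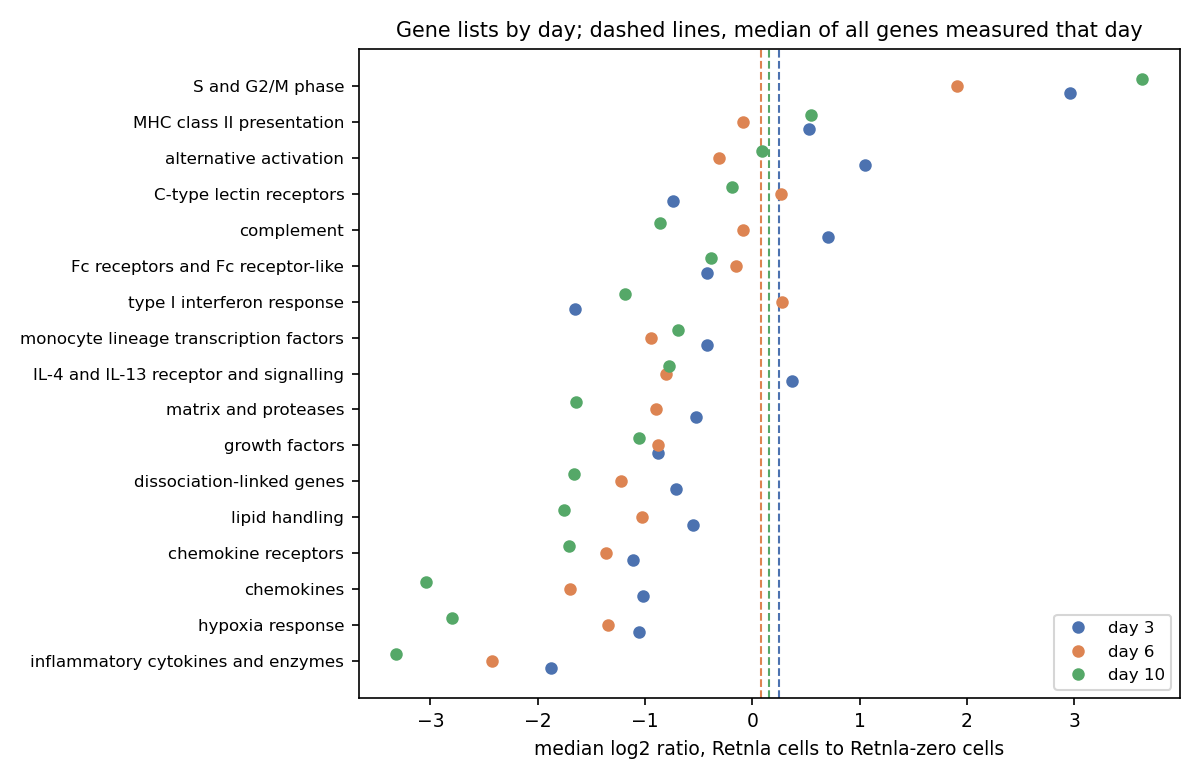
Median log2 ratio of Retnla cells to Retnla-zero cells (horizontal axis) for each pathway list (vertical axis), with 1 point a day and dashed lines for the median of all genes measured that day. S and G2/M phase genes lie to the right and inflammatory, hypoxia and chemokine lists to the left on every day, and the alternative activation list lies at 1.05 on day 3, -0.31 on day 6 and 0.09 on day 10.

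Markers of cells that could have been carried along were counted in the Retnla cells. All 7 eosinophil markers were at 0 UMIs on days 3 and 6, and on day 10 all but 1 of them, which had a single UMI, so that the defining markers Siglecf, Epx, Prg2 and Ccr3 were at or near 0 beside the high Ear2. T cell markers gave 0, 0 and 1 UMIs beside the high Cd2, neutrophil markers 4, 6 and 6, fibroblast markers 1, 6 and 8, keratinocyte markers 2, 0 and 3, and Langerhans cell markers 0, 0 and 2. In Retnla-zero cells the summed levels of these lists ran from 0.870 to 1.87 CPM for eosinophils, 0.387 to 1.46 for T cells, 151 to 260 for neutrophils, 7.35 to 54.4 for fibroblasts, 3.58 to 6.83 for keratinocytes and 12.1 to 74.7 for Langerhans cells. Some other lists were not near 0. Markers of natural killer and innate lymphoid cells gave 24, 20 and 32 UMIs (148, 58.3 and 68.9 CPM against 64.7, 145 and 86.5), all of them from Il7r, with the other 5 genes at 0. Il7r, the interleukin 7 receptor, was 2.29-fold higher on day 3, where 2 Retnla cells held its 24 UMIs. Plasmacytoid dendritic cell markers gave 39, 96 and 34 UMIs (240, 280 and 73.2 CPM against 575, 233 and 167), of which Bst2, also an interferon response gene, gave 38, 95 and 32. The part of such cells in the results was not tested. Adgre1, the F4/80 antigen of macrophages, stood at 111, 128 and 88.2 CPM against 111, 146 and 106, and Csf1r, the macrophage colony stimulating factor receptor, at 179, 402 and 336 CPM against 268, 353 and 418, both within 2-fold on each day.

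To see among which cells the Retnla cells lay, all kept barcodes were clustered without Retnla, Ear2, Lyz1 and Fcrls. Of 14 clusters, 3 held Retnla cells at a high share. Cluster 9, led by Fgfr1, Batf3, Sept11, Ciita and Cd81, held 50 of its 144 barcodes as Retnla cells, or 34.7% (27.0% to 43.1%), which were 54.9% of all Retnla cells. The whole cluster held 75.8% of the Retnla UMIs of the kept barcodes. Cluster 10 held 16 of 53, or 30.2% (18.3% to 44.3%), and cluster 11 held 10 of 36, or 27.8% (14.2% to 45.2%). The large cluster 2, led by Klrd1, Cd209a, Clec10a and Mgl2, held 9 of 473, or 1.90% (0.874% to 3.58%), and the other 10 clusters held 6 in all. At least 1 Retnla UMI was found in 41.0% of cluster 9, at a median of 2961.5 UMIs a barcode, and in 1.09% of cluster 7, led by S100a9, at a median of 10399.

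**Figure D4:**
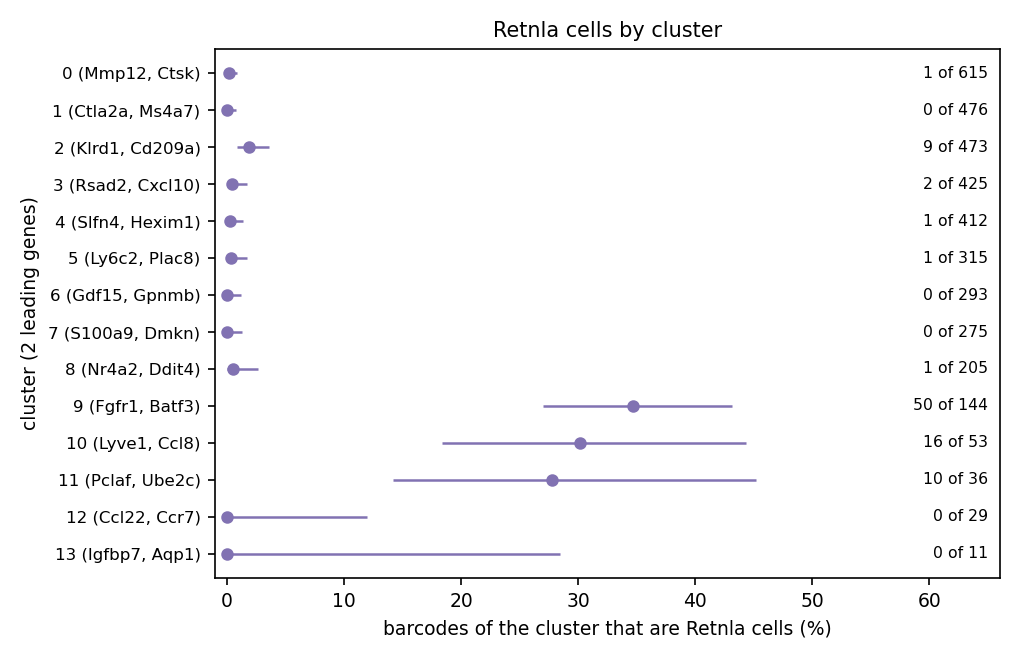
Share of each cluster's barcodes that were Retnla cells (horizontal axis, %), by cluster with its 2 leading genes (vertical axis), the 3 libraries together; bars are exact 95% binomial intervals and the counts stand at the right. Clusters 9, 10 and 11 lie between 27.8% and 34.7%, and all others at 1.90% or below.

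Cluster 10 was led by Lyve1, Ccl8, Cd163, Cd209f, Fcna, Gas6, Cbr2 and Folr2, so it was called resident dermal macrophage-like. Cluster 11 was led by Pclaf, Ube2c, Birc5 and Top2a, genes of dividing cells. Clusters 9 and 2 were left unnamed. By day, cluster 9 gave 3, 12 and 35 of the Retnla cells, cluster 10 gave 3, 6 and 7, cluster 11 gave 1, 2 and 7, and cluster 2 gave 2, 6 and 1. Retnla cells of cluster 9 had a median of 3948 UMIs and 12.2% mitochondrial UMIs, and its Retnla-zero cells 2616 UMIs and 14.3%, while Retnla cells of cluster 11 had a median of 24520.5 UMIs. At a clustering resolution of 0.4 or 1.2 instead of 0.8, the cluster with most Retnla cells held 38.5% or 37.4% of them. A second one held 26 or 25 of the 91, among 544 or 251 barcodes, and these Retnla cells had a median of 18804 or 18359 UMIs. Like cluster 2, it had Klrd1, Cd209a and Mgl2 among its leading genes. The cell with 1828 Retnla UMIs, in cluster 9 at 0.8, lay in it at both resolutions. The low share of cluster 2 (1.90%) thus holds for a resolution of 0.8. Depth and RNA quality thus moved with the split of these cells over clusters, and their part in it was not tested.

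The Retnla cells of the 4 clusters did not share 1 profile. In cluster 10, Ear2 was detected in 1 of 16 Retnla cells, Lyz1 in 1 and Fcrls in 7, against 27, 39 and 39 of 50 in cluster 9. In cluster 11, Ear2 was detected in 10 of 10, Lyz1 in 5 and Fcrls in 9, and in cluster 2 Ear2 and Fcrls in 9 of 9 and Lyz1 in 3. Of the 17 Retnla cells with none of the 3 markers, 8 lay in cluster 10, with a median of 2520.5 UMIs, and 4 in cluster 9, with a median of 1749.

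Within clusters, Retnla cells still differed from Retnla-zero cells, a comparison made after the values were seen and over summed libraries. Inside cluster 9, 638 of 4135 genes were higher (15.4%) and 550 lower (13.3%). The shares were 16.3% and 15.6% on day 6 alone, 24.1% and 14.3% on day 10 alone, and 10.6% and 6.93% alike on both days. Inside cluster 11 they were 6.73% and 9.76%, and inside cluster 2 they were 16.8% and 7.54%. In cluster 9, Lyz1 stood at 2217 CPM against 30.2, Fcrls at 1047 against 106, and Fn1, the matrix protein fibronectin, at 4153 against 752. Lyz1, Fcrls and Ear2 came with the choice of the cells and were left out of the clustering. Their values within clusters are thus no independent support. By day, Lyz1 in cluster 9 stood at 1406 CPM against 8.14 on day 6 and at 2609 against 60.0 on day 10. Fn1 stood at 3662 against 611 and at 4413 against 788. Cx3cr1, the fractalkine receptor, had 1 UMI in Retnla cells on each of these days against 195 and 206 CPM, and Hspa1a, a heat shock protein whose UMIs may be shared with Hspa1b, stood at 642 against 2849 and at 398 against 1799. Day 3 had 3 Retnla cells in the cluster and was not compared. In cluster 9, 19 of 50 Retnla cells but 11 of 85 Retnla-zero cells were under 10% mitochondrial UMIs. Values within clusters are given without that limit, and the part of RNA quality in them was not tested.

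Across clusters 9, 11 and 2, 59 of 3452 genes were higher alike (1.71%) and 47 lower alike (1.36%). The summed classes hold unequal shares of the 3 days: cluster 2 had 2, 6 and 1 Retnla cells among 127, 147 and 199 barcodes. The part of the day in these calls was not tested. Fn1, Fcrls, Ear2, Gfra2 and Aldh1a2 had the largest mean ratios, and Ifitm1, Ms4a4c, Ms4a6b, Cd209a and Pou2f2 the smallest. Ear2 stood at 638 CPM against 196 in cluster 9, 621 against 16.6 in cluster 11 and 1059 against 50.7 in cluster 2. Fn1 stood at 2830 against 66.4 in cluster 11 and at 2050 against 102 in cluster 2, while over all cells of a day it was within 2-fold, at 1856, 2144 and 3648 CPM against 1010, 1362 and 1879. Lyz2 stood at 12354 against 3298, 10569 against 2577 and 8847 against 1401 in clusters 9, 11 and 2. Among all Retnla-zero cells, Lyz2 itself stood at 10259 CPM under 10% mitochondrial UMIs and at 5109 CPM at 10% to 20%. Cd209a, the mouse relative of DC-SIGN, stood at 50.1 against 212 in cluster 9 and at 52.2 against 1189 in cluster 2.

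Inside the resident-like cluster 10, 112 of 2738 genes were higher (4.09%) and 294 lower (10.7%). There Fcrls stood at 117 CPM in Retnla cells against 439, Fn1 at 11.7 against 15.3 and Lyz2 at 6084 against 10233. Ccl8 stood at 1422 against 5931 and Clec10a, a lectin of dendritic cells and macrophages, at 1713 against 656, although Clec10a was lower in Retnla cells of cluster 2, at 26.1 against 740. Called alike in all 4 clusters were 3 of 2291 genes higher (0.131%), namely Lpl, Pld3 and Jup, and 4 lower (0.175%), namely Ms4a6b, Pou2f2, Ccnd1 and Cd300c2. Lpl encodes lipoprotein lipase and Ccnd1 cyclin D1. In cluster 10, Retnla cells held 2 UMIs of Ccnd1 against 27 and 3 of Cd300c2 against 19. The intervals of these ratios hold 1 (0.0659 to 1.10 and 0.0914 to 1.64).

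**Figure D5:**
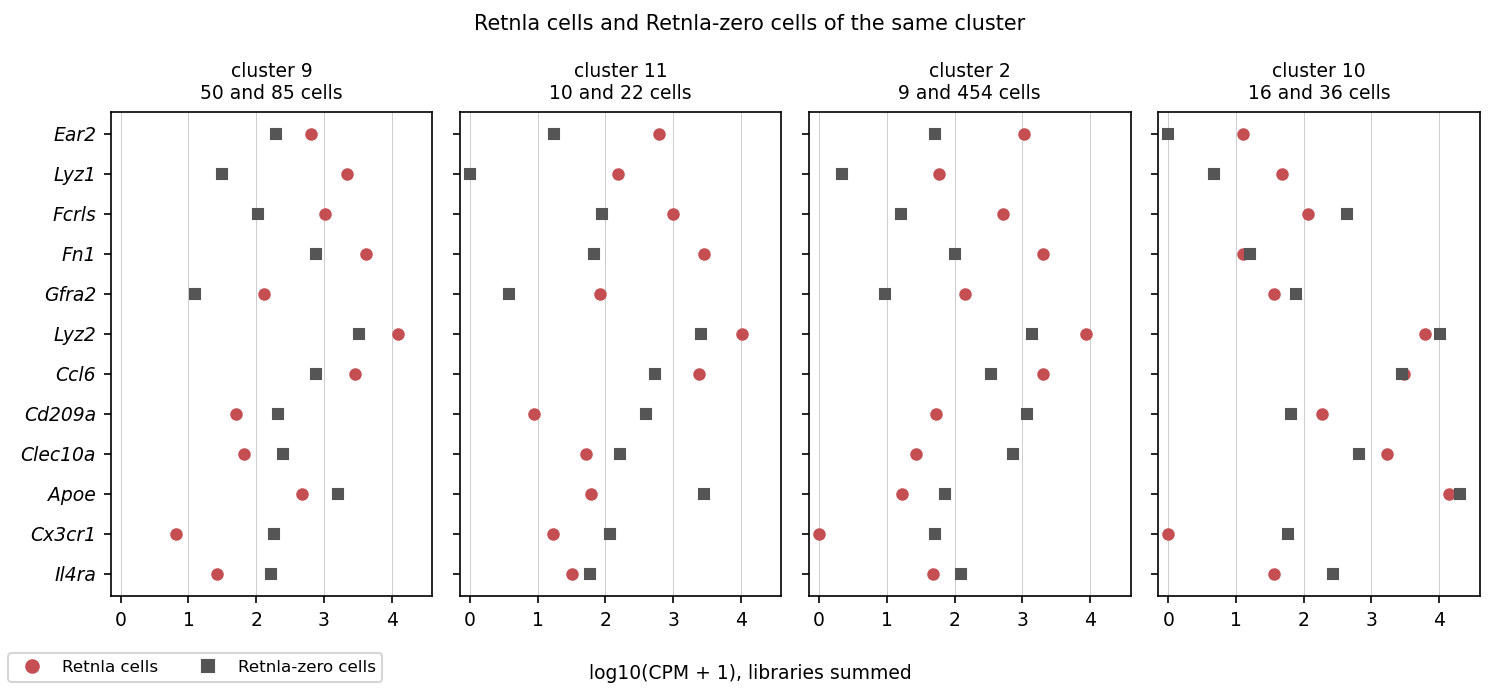
Levels of 12 genes (vertical axis) as log10(CPM + 1) with the 3 libraries summed (horizontal axis) in Retnla cells (round) and Retnla-zero cells (square) of the same cluster, for clusters 9, 11, 2 and 10; the number of cells of each class is given above each panel and no error is drawn. In clusters 9, 11 and 2, Ear2, Lyz1, Fcrls, Fn1, Gfra2, Lyz2 and Ccl6 are to the right in Retnla cells, and in cluster 10 Fcrls, Fn1, Gfra2 and Lyz2 are to the left.

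S and G2/M phase genes were higher in Retnla cells in 14 of 18 on days 6 and 10 alike, with a median log2 ratio of 2.72. Among all genes 5.52% were higher alike. Mki67 stood at 55.5, 84.5 and 209 CPM against 6.48, 34.6 and 17.4, but was detected in 1, 4 and 7 Retnla cells. Without cluster 11 in either class, 7 of these genes could be measured and 0 were higher. Without the deepest Retnla cell of each library, 2 of 11 were higher. With Retnla-zero cells weighted to the clusters, 1 of 18 was higher. The share of 5.52% belongs to the main comparison. None is given for these alternatives, so their counts, some of few measured genes, were not set against one.

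Between days, Retnla cells were compared with each other, with the same ratio in Retnla-zero cells beside it. From day 6 to day 10, 292 of 5021 genes were higher (5.82%) and 333 lower (6.63%), against 2.16% and 3.84% of genes in Retnla-zero cells. From day 3 to day 6, 318 of 3579 were higher (8.89%) and 211 lower (5.9%), against 14.2% and 3.53% in Retnla-zero cells. From day 3 to day 10, 467 of 4203 were higher (11.1%) and 359 lower (8.54%), against 12.3% and 3.98% in Retnla-zero cells. Of the 48 named ratios, 8 in each direction of each pair, 31 drew more than 50% of the higher side's UMIs from 1 cell, so most of them describe single cells.

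The cluster makeup of the class also differed between days, with 12 of 29 Retnla cells in cluster 9 on day 6 and 35 of 50 on day 10, and its part in the ratios was not tested. Lyz1, carried by 39 of the 50 Retnla cells of cluster 9, stood at 466 CPM on day 6 and 1390 on day 10, 2.98-fold higher (2.5 to 3.57), against a ratio of 0.570 in Retnla-zero cells, though 1 cell gave 83 of its 160 UMIs of day 6. Fcrls was 2.12-fold higher on day 10 than on day 6, against 0.596 in Retnla-zero cells. Ear2 was not called, at 0.660 against 0.515. Upb1, the enzyme β-ureidopropionase of pyrimidine breakdown, stood at 37.0, 72.8 and 207 CPM in Retnla cells, detected in 3, 7 and 18 of them, against 2.32, 3.98 and 2.60 CPM in Retnla-zero cells. It was 5.58-fold higher on day 10 than on day 3 (2.47 to 15.6), against 1.12 in Retnla-zero cells. C1qa stood at 462, 1168 and 430 CPM in Retnla cells and at 283, 1271 and 1267 in Retnla-zero cells, so that from day 6 to day 10 it was 2.71-fold lower in the one class and within 2-fold in the other.

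Lpl stood at 641, 1518 and 1435 CPM in Retnla cells and at 165, 796 and 145 in Retnla-zero cells. From day 6 to day 10 its ratio was 0.946 in Retnla cells and 0.183 in Retnla-zero cells. Of 13 macrophage markers measured in Retnla cells, 9 were higher on day 6 than on day 3, as were 10 of 15 in Retnla-zero cells, with median log2 ratios of 1.17 and 1.29. From day 6 to day 10, 8 of 13 were lower in Retnla cells and 0 of 15 in Retnla-zero cells. Of 10 interferon genes, 9 were lower on day 10 than on day 6, against 11 of 18 in Retnla-zero cells. Shares over all genes in Retnla cells were 8.89% higher from day 3 to day 6 and 6.63% lower from day 6 to day 10. In Retnla-zero cells the same shares were 14.2% and 3.84%. The differences between the 2 classes' ratios were not tested, since each day is 1 library.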

How the data were processed

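Droplet single-cell RNA libraries of wound monocytes and macrophages, 1 per day (3, 6 and 10 days after injury) from 2 pooled mice each, were analysed from the deposited matrices of UMI counts per gene and barcode. The authors made these counts with Cell Ranger 3.0.2 on mm10, per the submitters' processing notes, and their annotation release was not given in the sources used here. Gene positions came from GENCODE M21 (30934 of 31053 identifiers matched). The members, gene lists and markers were chosen with earlier results of these data known.

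Barcodes with at least 200 genes and under 20% mitochondrial UMIs were kept. UMIs were summed per class and library, scaled to CPM and compared as ratios with exact conditional binomial intervals, and shares have exact Clopper-Pearson intervals (95%, counting error only). Genes with at least 20 UMIs over both sums were called at 2-fold. Against a class with 0 UMIs the ratio is a bound at a floor of 3 UMIs over the class. No replicate exists, so no test was run. Named genes were the 15 largest and 15 smallest mean ratios over libraries with at least 20 Retnla cells (days 6 and 10), called alike in both and at 100 CPM or more in the higher class, without mitochondrial, ribosomal protein, Gm-, Rik-named and hemoglobin genes and Retnla; between days, 8 in each direction of each pair. Genes the text takes from lists, clusters or between days outside this rule were chosen after their values were seen.

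Clustering used scanpy 1.11.5 (2000 variable genes, 30 components, 15 neighbours, Leiden with leidenalg 0.10.2, resolution 0.8), without Retnla, Ear2, Lyz1 and Fcrls, and Scrublet called doublets. A cluster was named only from its markers. Numerical work used Python 3.11.15, numpy 2.4.6, scipy 1.17.1 and pandas 2.3.3, and the ratio code was tested on simulated data. Alternatives changed the mitochondrial and Retnla limits, the doublets, the depth, the comparison cells, the scaling and the UMI minimum. Chosen after seeing the data were the counting-interval call, the minimum of 10 UMIs observed or expected, the runs without the cycling cluster or the deepest Retnla cell, and the clustering resolutions.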

Additional observations from a re-analysis of the deposited data

Results flagged for a closer look

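Barcodes that failed the filter also carried Retnla. Of the 298, 371 and 446 barcodes left out on days 3, 6 and 10, 9, 47 and 75 had at least 3 Retnla UMIs, or 3.02%, 12.7% and 16.8%. Their median mitochondrial share was 30.2%, 30.8% and 30.5%. All left-out barcodes together held 28.8%, 54.5% and 15.6% of the library's Retnla UMIs on the 3 days. The part of RNA quality in this was not tested.

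Ifit3 and Irf7, genes of the interferon response, were higher in Retnla cells on day 6 and lower on day 10, and the difference was not tested. Ifit3 had a log2 ratio of Retnla to Retnla-zero cells of 1.61 on day 6. On day 10 it had 0 UMIs in Retnla cells against 16.4 CPM, and its -1.35 is set by the floor of 3 UMIs, with an interval of the ratio (0.0804 to 1.16) that holds 1. Irf7 had 1.05 on day 6, and -2.99 on day 10 at the same floor, with 2 UMIs in Retnla cells. Single cells carried day 6: 1 gave 20 of the 29 Ifit3 UMIs and 1 gave 52 of the 80 Irf7 UMIs. No other of the 263 list genes measured on both days was called in opposite directions.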

How the results depend on the processing

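No paired analysis was possible because each day has 1 library and no labels pair cells across days. The share of Retnla cells on day 10 was 1.76% under 10% mitochondrial UMIs and 3.81% when thinned with at least 1 Retnla UMI, against 2.84%. The fullest cluster held 38.5% of Retnla cells at resolution 0.4 and 37.4% at 1.2, against 54.9%. With Retnla-zero cells weighted to the clusters, 210 genes were higher and 303 lower on days 6 and 10 alike (463 and 499), and 951 higher on day 10 (1464). With TMM scaling, 743 were higher and 905 lower on day 3 (1228 and 494). With at least 100 UMIs, 800, 349 and 768 were higher on days 3, 6 and 10 and 202 on days 6 and 10 alike. With 10 UMIs observed or expected, these were 396, 411, 870 and 251. With a counting interval beyond 1, 748 were higher on day 3 and 579 on day 6 (915). Between days, at least 100 UMIs left 38 higher and 48 lower from day 3 to 10, 16 and 39 from day 6 to 10, and 20 and 25 from day 3 to 6. The mean of the cells' CPM gave 513 higher from day 6 to 10 (292), 696 lower from day 3 to 10 (359) and 441 lower from day 3 to 6 (211). Without the cycling cluster, 263 were higher from day 3 to 10 (467) and 184 from day 6 to 10, and with at least 10 Retnla UMIs, 294 from day 3 to 10. Fewer genes could be measured at the stricter minimum; for the other settings the cause was not tested. Direction turned for Arg1 (mean log2 0.18, clusters weighted; Ptgs2 and Slpi turned there on day 10 alone), for Stmn1 on day 3 (-1.46 with clusters and -1.0 with depth weighted) and on days 6 and 10 (-0.49, clusters weighted), and for Thbs1 from day 3 to day 6 (1.08 without the deepest Retnla cell). On day 3 it also turned for Ccnd1 (-0.0279) and Socs3 (0.0065) with clusters weighted and for Pou2f2 (0.76 with the mean of the cells' CPM). Depth limits low genes most on day 3, with 12 Retnla cells.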
